A study of Mus musculus with 10 samples.

Results

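The network examined here is the set of genes whose proteins compete for Max: the MYC family (Myc, Mycn and Mycl), Max itself, and the Max partners Mxd1, Mxi1, Mxd3, Mxd4, Mnt and Mga. Its 10 members were taken by gene symbol from a count sheet of 21010 genes, by a rule that uses no measured value. All 10 were among the 15728 genes that passed the filter on low counts and were tested.

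Myc proteins bind DNA only as pairs with Max, at the E-box sequence CACGTG and its variants, and the pair recruits histone acetyltransferases and the elongation kinase P-TEFb. The Mxd proteins, Mxi1 and Mnt form pairs with the same Max protein on the same sites, but bring in Sin3 corepressors with histone deacetylases. Mga, a very large protein with both a T-box and a Max-binding domain, is the scaffold of a variant Polycomb complex, PRC1.6. Levels of Max are usually stable, so the makeup of the network depends on which partners a cell makes. In the kidney, Myc is low in the resting tubule, Mycn is a gene of the embryonic ureteric bud and nephron progenitors, and forced Myc in tubules causes cysts in mice.

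RNA was compared between 5 KMS mice and 5 KM mice, all on the C57BL/6 background and 20 weeks old. The study's reporting form gives 5 mice per group, so each library was taken as 1 mouse. KMS mice carried KspCre, the MYC R26StopFL/+ transgene and floxed alleles of Setd2, the methyltransferase that places H3K36me3. KM mice carried KspCre and the same MYC transgene, with Setd2 intact, and were the model of polycystic kidney disease. The sample labels write the genotypes as Ksp1.3/cre; MYCfl/fl;Setd2fl/fl for KMS and Ksp1.3/cre; MYCfl/fl for KM, which is the notation of floxed alleles and does not name the transgene. The study's account of the breeding, in which MYC is overexpressed, was followed. Both groups therefore had forced MYC, and there was no group without it. Ksp is the promoter of Cdh16, a cadherin of tubule epithelium, so blood, vessel and connective tissue cells of either group should have neither the active transgene nor the Setd2 deletion. The RNA came from kidney tissue by the methods, from the neoplastic masses in KMS and the cysts in KM by the reporting form, and from primary tubular epithelial cells of the cortex by the sample labels. Where lesions were taken, genotype and kind of lesion cannot be told apart.

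Total counts ranged from 16925118 to 25029639 in KMS libraries and from 10873993 to 14564152 in KM libraries. All 4 markers of tubule epithelium (Cdh16, Pax8, Epcam, Cdh1) had at least 871 counts in every library, with a summed level of 1188 to 1757 CPM in KMS and 935 to 1781 CPM in KM. Setd2 itself, counted over the whole gene and thus also over its undeleted exons, had 28.2 to 89.0 CPM in KMS and 62.6 to 73.3 CPM in KM, which checks the deletion poorly. KMS replicate 5 stood apart, with a mean Spearman correlation of 0.851 with its own group against at least 0.914 for the other KMS libraries, and a TMM factor of 0.642. KM replicates 1 and 2 were much more alike than other pairs (chi-square per degree of freedom 5.96, against at least 50.6). They differed by more than counting noise and were kept as 2 samples. That difference does not show that they come from 2 mice, so KM may hold fewer than 5 independent mice. No label gives a mouse's sex, and by the reporting form mice of both sexes were used. Over 4 Y-linked genes, mean log2 CPM was −1.48, −1.08, −2.43, 4.96 and 2.34 in KMS replicates 1 to 5, against 6.73, 6.68, 4.08, −2.43 and 5.41 in KM replicates 1 to 5, so Y-linked RNA was unevenly spread over the groups.

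Promoter windows of 250 bases before to 50 bases after a transcript start, from RefSeq on GRCm38.p6, were found for 9 of the 10 members, all but Myc. The 3 shown are those of Mycn and Mycl, the members with the lowest unadjusted p-values below, and of Max, the partner common to all. Capitals mark CACGTG, the E-box of the network itself, or the E2F-like words TTTCCCGC, TTTGGCGC and TTTCGCGC on either strand. The windows lie at chr12:12941787-12942086 on the minus strand (Mycn), chr4:122995681-122995980 on the plus strand (Mycl) and chr12:76962199-76962498 on the minus strand (Max), and are written 5′ to 3′ along the gene.
Mycn: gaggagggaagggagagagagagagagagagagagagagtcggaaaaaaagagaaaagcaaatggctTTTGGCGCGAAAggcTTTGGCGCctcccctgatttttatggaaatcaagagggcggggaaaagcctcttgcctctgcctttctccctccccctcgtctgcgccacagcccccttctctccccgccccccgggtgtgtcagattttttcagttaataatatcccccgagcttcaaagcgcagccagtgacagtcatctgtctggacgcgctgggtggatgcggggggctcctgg
Mycl: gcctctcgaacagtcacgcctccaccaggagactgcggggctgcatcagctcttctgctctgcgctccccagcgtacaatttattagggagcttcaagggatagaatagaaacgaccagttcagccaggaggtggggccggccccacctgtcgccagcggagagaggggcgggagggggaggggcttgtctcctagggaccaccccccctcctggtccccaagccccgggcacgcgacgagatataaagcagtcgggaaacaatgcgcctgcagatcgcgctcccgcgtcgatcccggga
Max: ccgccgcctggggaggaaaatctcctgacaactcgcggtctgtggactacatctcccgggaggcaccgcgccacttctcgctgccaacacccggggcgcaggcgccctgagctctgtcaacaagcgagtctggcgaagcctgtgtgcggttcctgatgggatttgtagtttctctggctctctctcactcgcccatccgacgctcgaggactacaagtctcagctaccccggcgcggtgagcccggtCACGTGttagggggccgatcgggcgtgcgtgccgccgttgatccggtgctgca
The Mycn window held 3 E2F-like words, beginning 183, 179 and 168 bases before the start, of which the second overlaps the first. No other member's window held one, and 1.84% of 32851 windows in the table did. CACGTG began 3 bases before the start of Max, 123 before that of Mnt and 219 before that of Mxd4. It was thus found in 3 of 9 members, and in Max it spans the start. These 9 members have 11 windows, and 7.15% of all windows held CACGTG. These are matches of letters, not binding sites, and the Mycl window held neither word.

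The members spanned a wide range of levels. Divided by exon length, Max had the highest mean level in both groups, at 19.4 ± 4.38 CPM per kb in KMS and 16.3 ± 1.85 CPM per kb in KM (SD, n = 5 each). Mxi1 followed with 16.0 ± 7.55 CPM per kb in KMS and 11.2 ± 2.11 CPM per kb in KM. Next came Mnt, Mxd4 and Mxd1 in both groups, with means per kb of 7.90, 7.47 and 2.89 in KMS and of 7.84, 5.75 and 2.89 in KM. Below them stood Myc at 2.68 ± 1.71 CPM per kb in KMS and 2.10 ± 0.693 CPM per kb in KM. Mycn had 0.467 ± 0.277 CPM per kb in KMS and 2.20 ± 1.91 CPM per kb in KM, and Mycl 0.427 ± 0.142 CPM per kb in KMS and 1.19 ± 0.462 CPM per kb in KM. Mxd3 and Mga were the lowest, with means of 0.297 and 0.189 CPM per kb in KMS and of 0.427 and 0.130 CPM per kb in KM. The order was thus the same in both groups except that Myc ranked above Mycn in KMS, and Mycn ranked above Myc in KM. That rank of Mycn in KM holds for the means only, since the KM medians were 1.70 CPM per kb for Mycn and 1.89 CPM per kb for Myc. Ranges over the 5 libraries overlapped between most neighbours in this order. They did not overlap between Mxd4 and Mxd1 in either group, between Myc and Mycn in KMS, and between Max and Mxi1 in KM. The order rests on the exon lengths used, which take in all annotated exons of a gene. In plain CPM, the mean of Mxi1 was above that of Max (109 against 70.0 in KMS, 76.2 against 58.8 in KM). The mean CPM of Mxd4 was above that of Mnt (63.4 against 36.6 in KMS, 48.8 against 36.3 in KM).

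**Figure D1:**
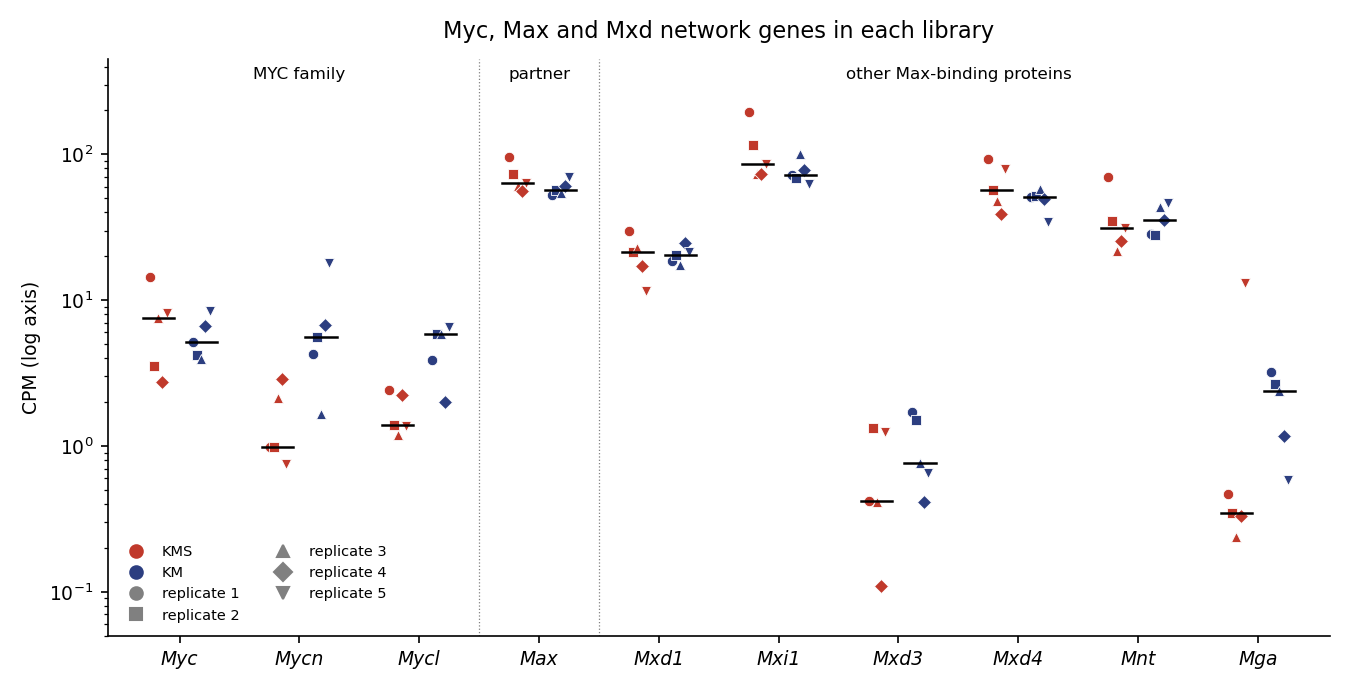
Level of the 10 network genes in each of the 10 libraries (CPM, log axis; marker shape gives the replicate number, bars are group medians), with KMS left of KM for each gene. Mycn and Mycl have lower medians in KMS than in KM, the abundant Max, Mxd1, Mxi1, Mxd4 and Mnt overlap widely, and Mga lies under 0.5 CPM in 4 KMS libraries and at 13.1 CPM in KMS replicate 5.

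The lowest p-values of the network were those of Mycn and Mycl of the MYC family, and both were lower in KMS without being called. Mycn, on chr12:12936093-12941836, encodes N-Myc, which acts as Myc does but is mostly made in embryonic and neural progenitors. It had 0.98, 0.98, 2.13, 2.86 and 0.75 CPM in KMS replicates 1 to 5, against 4.25, 5.60, 1.66, 6.74 and 18.0 CPM in KM replicates 1 to 5. Only KM replicate 3 lay within the KMS range, and KM replicate 5 was the highest of all. The counts behind these levels were small, 12 to 52 reads in KMS and 28 to 248 reads in KM. The log2 fold change was −2.23 (SE 0.626, 95% interval −3.60 to −0.86), with an unadjusted p of 0.00407 and an adjusted p of 0.153 in edgeR's quasi-likelihood test. Without KM replicate 5 the log2 fold change was −1.54, the smallest of the 10 fits that each left out 1 library. Its unadjusted p stayed under 0.05 in all 10 of those fits, with adjusted p-values of 0.113 to 0.332 (edgeR).

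Mycl, on chr4:122995588-123002490, encodes L-Myc, a weaker transactivator that is known from lung cancer and dendritic cells. Its levels were 2.43, 1.39, 1.18, 2.25 and 1.37 CPM in KMS replicates 1 to 5, against 3.87, 5.82, 5.86, 1.99 and 6.53 CPM in KM replicates 1 to 5. All KM libraries but replicate 4 lay above every KMS library, and KM replicate 4 lay within the KMS range. Mycl had 20 to 52 reads per library in KMS and 29 to 99 reads in KM. The log2 fold change was −1.48 (SE 0.404, 95% interval −2.36 to −0.59), with an unadjusted p of 0.00345 and an adjusted p of 0.150 (edgeR). The value was −1.67 without KM replicate 4 and −1.34 without KM replicate 5, the 2 ends of the range over single libraries left out. Adding Y-linked expression as a covariate, it was −1.02, with an unadjusted p of 0.0529 and an adjusted p of 0.279 (edgeR).

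Markers of immune cells had the same sign as Mycn and Mycl. All 7 tested genes of a list of 8 immune markers, among them Ptprc, Cd8a and Csf1r, had a negative log2 fold change, with a median of −1.71, and all 7 were under an unadjusted p of 0.05, against 3 with the Y-linked covariate. Their summed level was 23.1 to 75.8 CPM in KMS and 106 to 159.9 CPM in KM, with no overlap, and Ms4a1, a B cell surface protein, had 0 counts in 2 KMS libraries. All 4 fibroblast markers (Col1a1, Col1a2, Pdgfra and Dcn) had negative log2 fold changes too, with a summed level of 58.1 to 116 CPM in KMS and 134 to 328 CPM in KM. The part of these cells in the levels of Mycn and Mycl was not tested. In bulk RNA, fewer cells that make a transcript cannot be told apart from less of it in each cell. The genes whose pattern over the 10 libraries was most like that of Mycn, looked up after its values were seen, were Apobr (Pearson r of log2 CPM 0.976), Tlr2 (0.949) and Samsn1 (0.947). For Mycl they were Ctse (0.940), Klf5 (0.934) and Ntn1 (0.924). These correlations describe 10 libraries that share the same group difference, out of 13299 genes compared.

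Myc itself, the oncogene whose transgene both groups carried, showed no difference larger than the spread between mice. Its row, placed at chr15:61985341-61990361, is the only one for Myc in the sheet. Neither the species of the transgene's coding sequence nor whether its reads fall in this row is stated, so the value need not be the total of MYC transcript. Myc was at 14.4, 3.52, 7.56, 2.75 and 8.22 CPM in KMS replicates 1 to 5, against 5.14, 4.24, 3.97, 6.67 and 8.49 CPM in KM replicates 1 to 5. The highest and the 2 lowest libraries were all KMS, and the KM range lay inside the KMS range. The means were 7.29 ± 4.65 CPM in KMS and 5.70 ± 1.88 CPM in KM (SD, n = 5 each), from 50 to 308 reads in KMS and 56 to 117 reads in KM. The log2 fold change was 0.36 (95% interval −0.63 to 1.34, adjusted p = 0.698 in edgeR), and −0.04 without KMS replicate 1. This interval includes changes of over 1.5-fold in either direction. The genes most like Myc in pattern over the 10 libraries were Csrnp1 (r = 0.915), Capn15 (0.897) and Gpr157 (0.897).

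The makeup of the MYC family is given as shares. Per kb of exon, Myc gave 85.5, 66.9, 74.8, 41.5 and 84.2% of the family's summed CPM per kb in KMS replicates 1 to 5, against 45.7, 33.2, 42.8, 49.2 and 30.6% in KM replicates 1 to 5. All KMS libraries but replicate 4 lay above every KM library, and KMS replicate 4 lay within the KM range. The share of Mycn was 4.81 to 35.6% in KMS and 14.7 to 53.5% in KM, and Mycn was the largest of the 3 only in KM replicates 2 and 5. Mycl held 7.86 to 22.9% in KMS and 9.89 to 42.5% in KM. The shares are a description and were not tested.

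**Figure D2:**
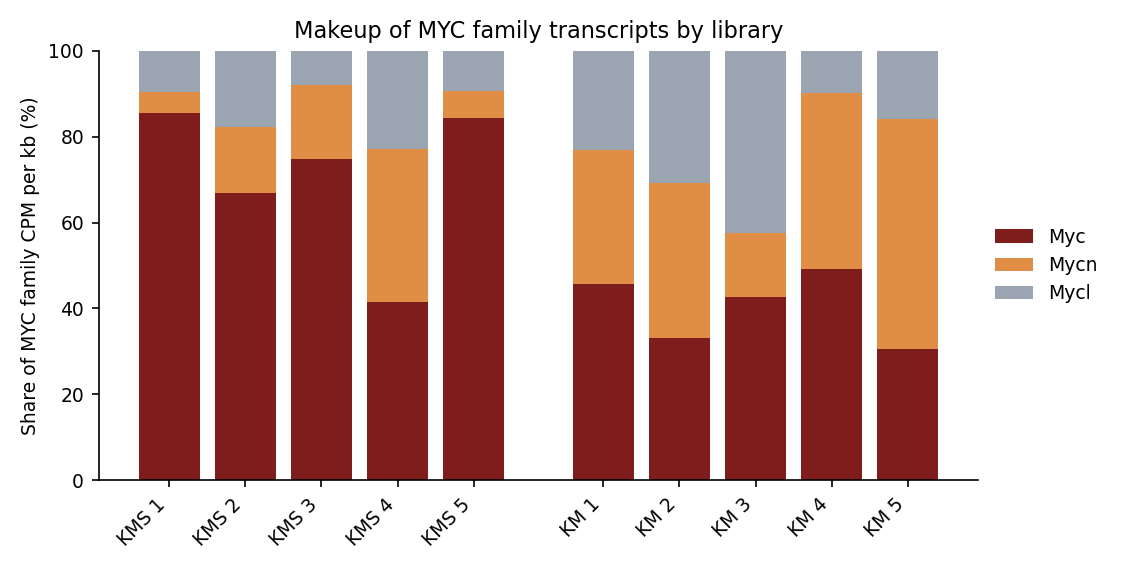
Share of Myc, Mycn and Mycl in the summed CPM per kb of the MYC family (%) in each library, KMS replicates 1 to 5 left of KM replicates 1 to 5. Myc makes up 41.5 to 85.5% in KMS and 30.6 to 49.2% in KM.

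Max, the obligate partner, was the steadiest member of the network. It had 95.6, 73.7, 60.9, 55.7 and 63.9 CPM in KMS replicates 1 to 5, against 52.8, 56.9, 54.1, 60.8 and 69.4 CPM in KM replicates 1 to 5. KMS replicates 1 and 2 were above every KM library and the other KMS libraries were within the KM range. The log2 fold change was 0.25 (95% interval −0.17 to 0.67, adjusted p = 0.490 in edgeR). The SD of log2 CPM of Max, 0.30 in KMS and 0.16 in KM, was at the 10.5th percentile of all tested genes in KMS and at the 10.6th in KM.

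Of the partners that recruit Sin3, the abundant Mxi1, also known as Mxd2, and Mxd4 had the larger positive differences, neither called. Mxi1 was at 195.9, 115, 73.8, 73.5 and 86.1 CPM in KMS replicates 1 to 5, against 71.7, 68.6, 99.8, 78.2 and 62.5 CPM in KM replicates 1 to 5. KMS replicates 1 and 2 exceeded all KM libraries, and the remaining 3 lay among them. Its log2 fold change was 0.52 (95% interval −0.12 to 1.15, adjusted p = 0.343 in edgeR), and 0.20 without KMS replicate 1. Mxd4, a Mxd protein of differentiating and resting cells, had 93.1, 56.8, 47.9, 39.2 and 79.7 CPM in KMS replicates 1 to 5, against 50.6, 51.8, 57.5, 49.4 and 34.5 CPM in KM replicates 1 to 5. The groups overlapped, with KMS replicates 1 and 5 above the KM range, and the log2 fold change was 0.38 (95% interval −0.18 to 0.94, adjusted p = 0.434 in edgeR), and 0.20 without KMS replicate 1.

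Mxd1, the first Mxd protein described and one induced as cells differentiate, was at 29.6, 21.4, 22.7, 17.2 and 11.5 CPM in KMS replicates 1 to 5, against 18.5, 20.4, 17.3, 24.7 and 21.3 CPM in KM replicates 1 to 5. The KM range lay inside the KMS range, and the log2 fold change of 0.00 had a 95% interval of −0.56 to 0.56 (adjusted p = 0.996 in edgeR). Mxd3, which unlike other Mxd genes is made in proliferating cells, was barely detected. Its levels were 0.42, 1.33, 0.41, 0.11 and 1.25 CPM in KMS replicates 1 to 5, against 1.71, 1.51, 0.77, 0.41 and 0.65 CPM in KM replicates 1 to 5, from 2 to 23 reads in KMS and 6 to 23 in KM. The ranges of the groups overlapped, and no difference was detected (log2 fold change −0.52, 95% interval −1.93 to 0.89, adjusted p = 0.690 in edgeR). The annotated span of Mxd3 overlaps that of Prelid1 on the opposite strand by 105 bases, and whether the counting used strand is not stated. Spans of other annotated genes overlap that of Mxi1 by 5146 and 201 bases and that of Mxd4 by 1001 bases on the opposite strand. On the same strand they overlap that of Mxd1 by 2364 and that of Max by 1319 bases. Whether these overlaps fall in exons was not examined, so it is not known if counts of these 5 members are split or shared. Ucp2 (r = 0.920), Nudt16 (0.920) and Nkd2 (0.914) were the genes most like Mxd3 over the 10 libraries, among 13300 compared.

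Mnt, the most widely made antagonist of Myc, had 69.6, 35.0, 21.7, 25.4 and 31.1 CPM in KMS replicates 1 to 5, against 28.2, 27.8, 43.8, 35.3 and 46.3 CPM in KM replicates 1 to 5. KMS replicate 1 was the highest of the 10 libraries, while KMS replicates 3 and 4 were the lowest. The log2 fold change was 0.01 (95% interval −0.68 to 0.71, adjusted p = 0.988 in edgeR), and −0.35 without KMS replicate 1. KMS replicate 1 thus held the highest level of 6 members, namely Myc, Max, Mxd1, Mxi1, Mxd4 and Mnt.

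Mga, on chr2:119872503-119970129, depended on 1 library. It had 0.47, 0.35, 0.24, 0.33 and 13.1 CPM in KMS replicates 1 to 5, from 10, 6, 4, 6 and 211 reads, against 3.20, 2.65, 2.37, 1.17 and 0.58 CPM in KM replicates 1 to 5, from 43, 35, 40, 17 and 8 reads. The first 4 KMS libraries lay below every KM library, and KMS replicate 5 lay above all of them. The 95% Poisson interval, which covers counting error only, was 11.4 to 15.0 CPM in KMS replicate 5 and reached at most 0.860 CPM in the other KMS libraries. With all libraries the log2 fold change was 0.54 (95% interval −1.83 to 2.91, adjusted p = 0.822 in edgeR). Without KMS replicate 5 it was −2.48, with an unadjusted p of 0.00115 and an adjusted p of 0.106 (edgeR), so Mga was not called in that fit either. Mga was not alone in this shape: 66 of 15728 tested genes were below every KM library in KMS replicates 1 to 4 and above every KM library in KMS replicate 5. The genes most like Mga, looked up after its values were seen, were Dhx29 (r = 0.973), Clasp1 (0.968) and Ldlrad4 (0.963), and these correlations rest on the same library.

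**Figure D3:**
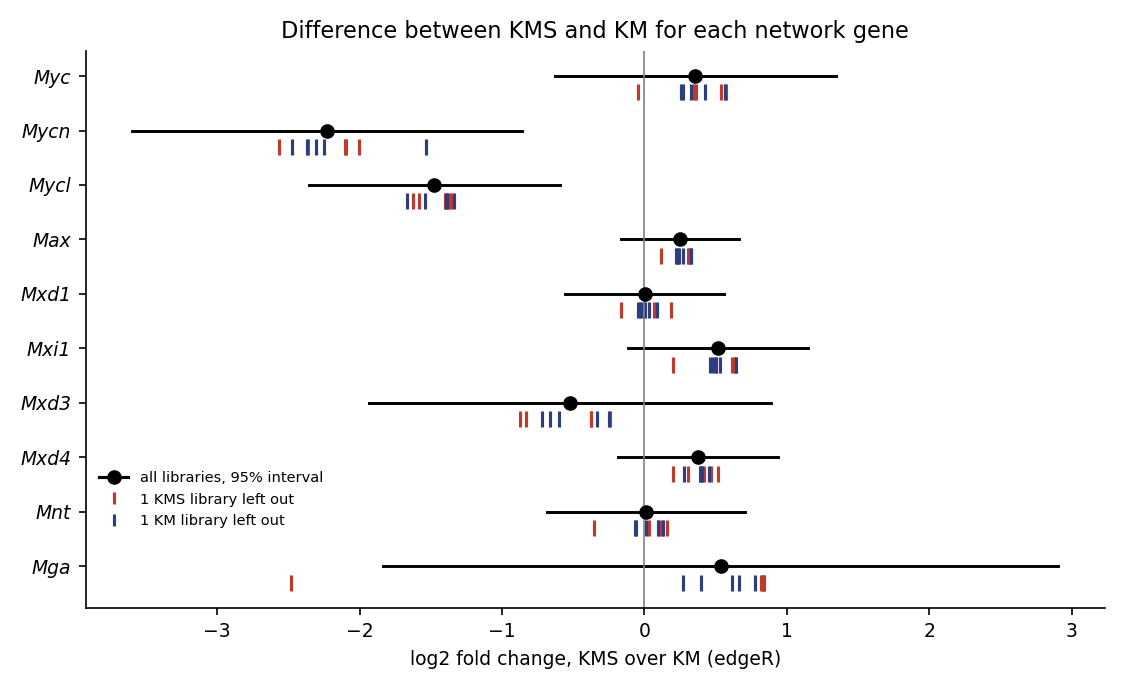
Log2 fold change of each network gene, KMS over KM, from edgeR's quasi-likelihood fit (points, with 95% intervals), and the value with each KMS or KM library left out in turn (ticks). The intervals of Mycn and Mycl lie below 0, all others include 0, and the value of Mga is −2.48 without KMS replicate 5.

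Over the whole network, 0 of 10 members were called at an adjusted p under 0.05 and a change of more than 1.5-fold in edgeR's quasi-likelihood test, which called 16 of 15728 genes (0.102%). At an unadjusted p under 0.05 there were 2 members lower in KMS, Mycn and Mycl, and 0 higher. Of all tested genes, 8.62% were lower and 10.8% higher at that threshold. None of the 10 members had groups that did not overlap, against 4.79% of all genes. DESeq2, at the same thresholds, called Mycn (log2 fold change −2.22, adjusted p = 0.0104) and Mycl (log2 fold change −1.47, adjusted p = 0.0120) lower in KMS and no other member. It called 4.07% of the genes for which it gave an adjusted p lower and 1.27% higher. The call of these members therefore depended on the test. The median log2 fold change was 0.13 over the members and 0.06 over all tested genes.

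The balance of repressor partners to the MYC family was also described per kb. The summed level of Mxd1, Mxi1, Mxd3, Mxd4, Mnt and Mga was 9.53, 17.9, 6.60, 9.60 and 8.83 times that of the 3 MYC genes in KMS replicates 1 to 5, against 6.31, 5.50, 9.90, 5.74 and 2.60 times in KM replicates 1 to 5. The ratio was highest in KMS replicate 2 and lowest in KM replicate 5, and the groups overlapped through KM replicate 3. KM replicate 5 was also the library with the most Mycn. This ratio was not tested.

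The genes that work with the network were read from lists chosen by role, and edgeR's quasi-likelihood test called 0 genes in any of them. In the parallel branch of Mlx, whose proteins sense glucose, 4 of 5 genes had a positive log2 fold change (median 0.19). Txnip, the glucose-induced arrestin that limits glucose uptake, had 1507, 733, 1051, 678 and 625 CPM in KMS replicates 1 to 5, against 481, 454, 705, 611 and 366 CPM in KM replicates 1 to 5. KMS replicates 1, 2 and 3 were above the KM range (log2 fold change 0.81, unadjusted p = 0.0267, adjusted p = 0.216 in edgeR), and it was the only gene of the list under an unadjusted p of 0.05. With the Y-linked covariate 0 genes of the list were under that threshold, and 0 to 1 with 1 library left out. The transcription factor Mlxipl, also known as ChREBP, and its partner Mlx had log2 fold changes of 0.39 and 0.19, and Arrdc4, an arrestin related to Txnip, had −0.28.

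Among 12 coactivators of Myc, 9 had a positive log2 fold change (median 0.20), and 1 was under an unadjusted p of 0.05. That gene was Cdk9, the kinase of P-TEFb, at 76.5 ± 32.4 CPM in KMS and 49.6 ± 5.50 CPM in KM (SD, n = 5 each; log2 fold change 0.63, adjusted p = 0.248 in edgeR). The number of coactivators under that threshold was 0 with the Y-linked covariate and 0 to 2 with 1 library left out. Ep400, of the NuA4 acetyltransferase complex, had −0.45, while Zbtb17 (Miz1, through which Myc represses) and Wdr5, a chromatin anchor of Myc, had 0.46 and 0.41 on the log2 scale. Of 10 corepressor genes of the Mxd proteins, 8 had a positive log2 fold change (median 0.27). Without KMS replicate 5 the median was 0.06, and 1 of these genes was under an unadjusted p of 0.05, against 2 with all libraries. Sin3b, a scaffold of the Sin3 complex, had 97.9, 116, 71.6, 63.6 and 237 CPM in KMS replicates 1 to 5, against 56.3, 63.1, 55.5, 41.7 and 50.9 CPM in KM replicates 1 to 5. The groups did not overlap, though KMS replicate 4 was only just above KM replicate 2. Its log2 fold change was 1.13, with an unadjusted p of 0.00595 and an adjusted p of 0.165 in edgeR, and DESeq2 called it, as its only call in this list. Suds3, of the same complex, had a log2 fold change of 0.72 (unadjusted p = 0.0383, adjusted p = 0.237 in edgeR). Sap18 had 45.9 CPM in KMS replicate 5 and at most 2.03 CPM in the other KMS libraries, against at most 3.08 CPM in KM. Of the other 9 genes of PRC1.6, the complex built on Mga, none was under an unadjusted p of 0.05 (median log2 fold change 0.07), with −0.33 for Tfdp1, −0.29 for Cbx3, 0.18 for Yaf2 and 0.29 for L3mbtl2.

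The genes that set the stability of Myc protein were mixed, with 5 of 11 tested positive and a median log2 fold change of −0.30. Under an unadjusted p of 0.05 there were 4, against 2 with the Y-linked covariate and 1 to 4 with 1 library left out. Fbxw7, the ubiquitin ligase subunit that marks phosphorylated Myc for degradation, had 3.60, 5.37, 3.13, 6.43 and 2.74 CPM in KMS replicates 1 to 5, against 8.34, 7.64, 11.7, 7.84 and 4.86 CPM in KM replicates 1 to 5. Only KM replicate 5 lay within the KMS range (log2 fold change −0.92, unadjusted p = 0.0201, adjusted p = 0.203 in edgeR). Skp2, another ligase subunit for Myc, had −0.72 (unadjusted p = 0.0488, adjusted p = 0.255 in edgeR). Stub1, a ubiquitin ligase that works with chaperones, had a log2 fold change of 1.07 (unadjusted p = 0.0359, adjusted p = 0.234 in edgeR), and was far higher in KMS replicate 5, at 226 CPM, than in any other library.

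The 30 genes that Myc is known to induce had no common direction, with 21 positive and 9 negative log2 fold changes and a median of 0.18. Those under an unadjusted p of 0.05 were 2 higher and 4 lower in KMS, and their number was 3 to 9 with 1 library left out (3 without KM replicate 3 or 5, 9 without KMS replicate 1). The 2 higher were Nme1, a nucleoside diphosphate kinase, with a log2 fold change of 1.23, and Rcc1, the exchange factor of Ran, with 0.59 (adjusted p = 0.232 and 0.237 in edgeR). Nme1 was very uneven within KMS, at 263 ± 252 CPM, against 112 ± 38.2 CPM in KM (SD, n = 5 each). Hk2, the hexokinase of tumor glycolysis, had 2.20, 2.37, 1.36, 0.93 and 0.25 CPM in KMS replicates 1 to 5, against 5.14, 6.96, 4.68, 9.35 and 53.5 CPM in KM replicates 1 to 5. The groups did not overlap, and KM replicate 5 was far above the rest. Its log2 fold change was −3.47 (SE 0.821), with an unadjusted p of 0.00124 and an adjusted p of 0.125 in edgeR, and DESeq2 called it, as its only call among these targets. Cad, the enzyme that starts pyrimidine synthesis, Slc7a5, a transporter of large neutral amino acids, and Tert, the catalytic subunit of telomerase, had log2 fold changes of −0.78, −1.50 and −1.70 (adjusted p = 0.205, 0.212 and 0.213 in edgeR). Among 8 genes that Myc represses, 5 were positive (median 0.24), and 2 were under an unadjusted p of 0.05, against 0 with the Y-linked covariate and without KM replicate 1 or 2. Ndrg1, named for its repression by N-Myc in the mouse, had 3599, 2595, 4581, 3446 and 3701 CPM in KMS replicates 1 to 5, against 1808, 1663, 2306, 2665 and 1747 CPM in KM replicates 1 to 5. All KMS libraries but replicate 2 were above the KM range, and KMS replicate 2 was just below KM replicate 4. The log2 fold change of Ndrg1 was 0.81 (unadjusted p = 0.0205, adjusted p = 0.204 in edgeR), and DESeq2 called it higher in KMS. Ndrg2, of the same family, had a log2 fold change of 0.71 and the cyclin-dependent kinase inhibitors Cdkn1c and Cdkn2b had 0.82 and −1.54.

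Genes of cell division, which Myc drives and Mxd proteins restrain, stood below 0 as a list. All 10 had negative log2 fold changes, with a median of −1.60, and 9 were under an unadjusted p of 0.05, though 0 were called by edgeR's quasi-likelihood test. With the Y-linked covariate 5 were under that threshold, and 6 without KM replicate 5. Mki67, the Ki-67 marker of cycling cells, had 4.35, 20.8, 5.67, 4.29 and 5.17 CPM in KMS replicates 1 to 5, against 35.7, 37.7, 20.5, 26.1 and 60.7 CPM in KM replicates 1 to 5. KMS replicate 2 overlapped KM replicate 3 and the other KMS libraries were all lower. Its log2 fold change was −2.16 (unadjusted p = 0.00101, adjusted p = 0.117 in edgeR). The mitotic checkpoint kinase gene Bub1, Top2a and Ccnb1 had −2.71, −1.80 and −1.73, with adjusted p-values of 0.131, 0.135 and 0.138 (edgeR). DESeq2 called 6 of the 10, all lower in KMS. The summed level of the list was 19.8 to 73.8 CPM in KMS and 63.6 to 173 CPM in KM. The part of the immune and fibroblast cells, whose markers were lower in the same libraries, was not tested here either. KM replicate 5 had the highest summed level of division genes, 173 CPM, and the highest level of Mycn and of Hk2.

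**Figure D4:**
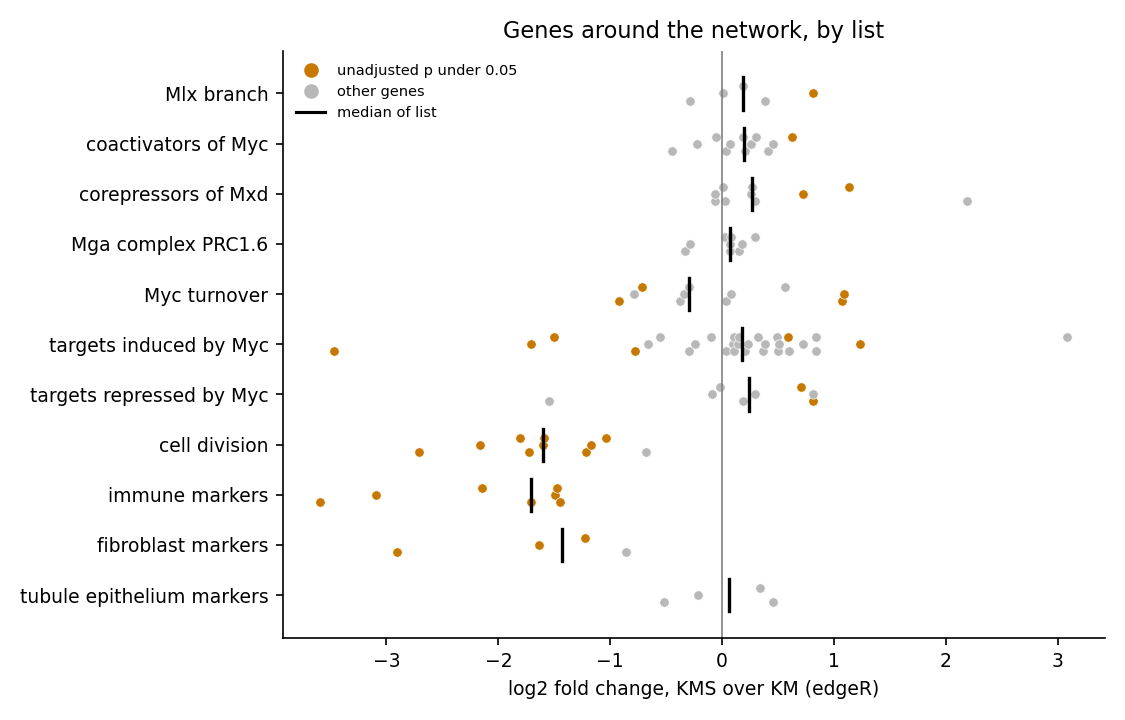
Log2 fold change, KMS over KM, of each gene in lists around the network (points, orange where the unadjusted edgeR p is under 0.05; vertical bars are list medians). The lists of cell division, immune markers and fibroblast markers lie wholly below 0, with medians of −1.60, −1.71 and −1.43, while coactivators, corepressors and targets induced by Myc are centred near 0.2. Without KMS replicate 5 the medians of coactivators, corepressors and induced targets were 0.18, 0.06 and 0.08.

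Markers of tubule cells had no common direction. The 4 tubule epithelium markers had log2 fold changes from −0.51 (Epcam) to 0.45 (Pax8), with a median of 0.06. The median was 0.05 for 4 proximal tubule markers, but their summed level was uneven within KMS, at 852, 1066, 7515, 5526 and 3216 CPM in KMS replicates 1 to 5, against 3054 to 3992 CPM in KM. KMS replicate 1, which held the highest level of 6 members, was thus the lowest in proximal markers, and the part of this in its member levels was not tested. The median was −0.07 for 4 markers of distal tubule and collecting duct, with −1.21 for Slc12a1 and 0.98 for Slc12a3, the transporters of the thick ascending limb and of the distal convoluted tubule. All 3 endothelial markers were negative, with a median of −0.29, but the median was 0.085 without KMS replicate 5. It ran from −1.04 to 0.14 over the alternative fits. The summed level of these markers was uneven, at 42.3 to 633 CPM in KMS and 127 to 569 CPM in KM. Of these 15 genes only Slc12a1 was under an unadjusted p of 0.05 (adjusted p = 0.238 in edgeR). The strongest differences among the immune and fibroblast markers were those of Cd8a (log2 fold change −3.59, adjusted p = 0.105 in edgeR) and of Col1a1 (log2 fold change −2.90, adjusted p = 0.0736 in edgeR). DESeq2 called 3 of 7 immune and 3 of 4 fibroblast markers, all lower in KMS.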

How the data were processed

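Per the labels and the study's methods, poly(A) RNA went into strand-specific libraries read as pairs of 150 bases, and the authors trimmed adapters and poor-quality reads, aligned the remainder to GRCm38 with HISAT2 and counted reads per gene with HTSeq. Its version and strand option are not stated. The submitters' processing notes name cutadapt 1.9.1, Trimmomatic 0.35, FastQC, HISAT2, StringTie and MACS2 2.1.1, without a role. The values deposited by the authors are raw counts, 1 whole number for each gene in each library, neither normalized nor pooled. All 10 count columns were mapped to libraries by their names, and 0 were left over. The sheet's own log2 fold changes, p-values and FDR, which hold the authors' comparison, were not used.

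KMS was compared with KM in R 4.3.3 with edgeR 4.0.16: filterByExpr by group, TMM factors, the quasi-likelihood test without covariates and Benjamini-Hochberg adjustment over all 15728 tested genes. A gene was called at an adjusted p under 0.05 and a change of more than 1.5-fold in either direction. The common dispersion was 0.248. The SE is the size of the log2 fold change over the square root of the F statistic. CPM used the TMM-scaled totals over tested genes, and log2 CPM a prior count of 3. Levels per kb used the summed exon length in GENCODE vM21, and positions the NCBI gene table of GRCm38.p6. Poisson intervals have a level of 95% and cover counting error only. The script was tested on simulated data of smaller dispersion than these, which checks the code and not the power at the spread seen here. Plots were drawn with Python 3.11.15 and matplotlib 3.10.9.

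The members' rule uses no measured value, but it, the gene lists and the tests were chosen with earlier results of these data known. Each member is named, and from each other list up to 4 genes of lowest unadjusted p, of which some are not reported here. Ms4a1, Nme1 and Rcc1 were named outside this rule, after their values were seen. Genes of like pattern are the 3 with the highest r, where mean log2 CPM reached 1, for Myc and Mxd3; those for Mycn, Mycl and Mga were added after their values were seen. Values printed per library for single list genes were also picked among these. Nothing says whether libraries were made or sequenced in batches by group, so batch and genotype cannot be told apart. The alternatives were RLE and upper-quartile factors, no filter, at least 1 CPM in at least 5 libraries, DESeq2 1.42.0, limma-voom 3.58.1, edgeR's likelihood ratio test, 1 factor of unwanted variation computed as in RUVg with all but the 5000 genes of lowest p as controls, the Y-linked level as a covariate, the replicate number as a block, and each library left out in turn. RUVSeq, which the methods name without a variant, was not used as such.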

Additional observations from a re-analysis of the deposited data

Results flagged for a closer look

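Mga in KMS had 1 library far from the other 4: KMS replicate 5, at 13.1 CPM, against 0.24 to 0.47 CPM in KMS replicates 1 to 4. The gap to its nearest neighbour took a share of 0.982 of the group's whole range, above Dixon's 95% critical value for 5 samples. The same library had a mean Spearman correlation of 0.851 with the other KMS libraries and a TMM factor of 0.642, and their part in the level of Mga was not tested. Mnt in KMS had 1 such library too, replicate 1 at 69.6 CPM against 21.7 to 35.0 CPM in the others, with a share of 0.724. These are 2 of 20 groups examined, the 10 members in KMS and in KM. Chance alone gives about 1 in 20 only for normally distributed values. The shares were taken on CPM and not on log2 CPM, so that rate need not hold here.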

How the results depend on the processing

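The number of called genes over the whole sheet, 16 in edgeR's quasi-likelihood test, moved with the tool, the covariates and single libraries. It was 1072 with DESeq2, which also changes the factors and the filter, 998 with the RUVg factor, 602 with the likelihood ratio test, 33 with limma-voom, 25 with upper-quartile factors, 7 with the Y-linked level as a covariate and 9 to 42 with a library left out (42 when KMS replicate 2 was dropped, 10 for KMS replicate 4, and 9 for KMS replicate 1 and for KM replicate 2). The number of members called, 0, was 2 with DESeq2 and with the likelihood ratio test (Mycn and Mycl), 3 with the RUVg factor (Mycn, Mycl and Mga) and 0 with each library left out. Members at an unadjusted p under 0.05 numbered 2, 1 with the Y-linked covariate and 2 to 3 with a library left out. Mycn and Mycl kept a negative log2 fold change under every alternative, over −2.34 to −1.93 and −1.62 to −1.02 for alternatives that kept all libraries.

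Members near 0 turned in sign. Myc was −0.023 with the Y-linked covariate and −0.043 to 0.57 with a library left out. Mxd1 was −0.14 with upper-quartile factors, −0.0050 with at least 1 CPM in at least 5 libraries, −0.039 with limma-voom, −0.25 with the covariate, −0.052 with the replicate block and −0.16 to 0.19 with a library left out. Mnt was −0.15 with upper-quartile factors, −0.083 with limma-voom, −0.19 with the covariate, −0.10 with the replicate block and −0.35 to 0.16 with a library left out. Mxd3 was 0.0048 with the covariate and was not tested at 1 CPM. Mga was −1.26 with limma-voom, −1.69 with the RUVg factor (adjusted p = 0.036, edgeR), −1.81 with the replicate block and −2.48 to 0.84 with a library left out, the first of these without KMS replicate 5. The cause was not tested. Upper-quartile factors moved the median of all genes to −0.09, from 0.06.

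Replicate numbers did not pair the libraries: deviations of same-numbered libraries correlated at −0.34, 0.14, −0.28, 0.12 and −0.44. With the replicate block 2 genes were called, 0 of them members, and each number's KMS library correlated best with its own KM number in 1 case of 5. Counting error weighs most on Mxd3, Mga, Mycn, Mycl and Myc, which had fewer than 100 reads in most libraries.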
